A study of Rattus norvegicus with 4 samples.

Results

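The genes described here encode ion channels, calcium pumps and sodium pumps of cultured rat aortic smooth muscle cells, and the question was which of their transcripts interleukin-1 beta (IL-1b) raised or lowered. Members were all probe sets whose platform annotation gives a single gene symbol that begins with Kcn, Cacn, Scn, Clcn, Trpc, Trpv, Trpm, Atp1a, Atp1b, Atp2a, Atp2b, Ryr or Itpr. There were 250 such probe sets for 157 genes, of 31042 probe sets that are no array controls. The rule reads the symbols alone and no measured value, but it was set with earlier results of these data known. Scnm1, Itprid2 and Trpc4ap carry such a symbol but are not channel subunits, and they were counted apart.

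The aortic smooth muscle cells came from Sprague-Dawley rats and were kept in culture. All 4 samples had 5 days of medium with 10% serum and then 3 days without serum, after which 2 samples received IL-1b at 2.5 ng/mL for 24 hours and 2 received the vehicle, 0.1% bovine serum albumin, for the same time. Each sample was hybridised to its own single-colour array, and expression is given as MAS5 intensity, the brightness of a probe set on a linear scale. Whether the samples of a group were separate cultures is not said in the labels. The p-values therefore reflect how far these particular samples differed, possibly for technical reasons alone, and 2 arrays in each group limit the precision.

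Contraction of arterial muscle follows the calcium concentration of the cytoplasm. Calcium enters through voltage-gated and other cation channels of the surface membrane and leaves the sarcoplasmic reticulum through inositol trisphosphate receptors and ryanodine receptors. Calcium pumps return it to the reticulum (the SERCA family) or move it out of the cell (the PMCA family), while potassium channels set the membrane voltage and with it the opening of calcium channels. The sodium pump maintains the ion gradients on which these currents depend.

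The IL-1b cells had lower transcript levels of Itpr1, the first inositol trisphosphate receptor, of the reticulum pump Atp2a1, of the L-type calcium channel pore Cacna1c and of the potassium channel genes Kcnh2 and Kcne4, by 2.19-fold to 7.14-fold. They had higher levels of the surface membrane calcium pump Atp2b1, by 2.83-fold at its brightest probe set, and of the sodium channel subunit Scn4b, by 4.02-fold. The sizes for Atp2a1 and Scn4b are fitted values against a group near background. For Cacna1c and Kcnh2 the value on IL-1b replicate 1 was below that array's background. The decrease of Cacna1c is that of its brightest probe set, and its other tested probe set did not follow (log2 fold change 0.28). A probe set of the main reticulum pump Atp2a2 was 1.46-fold lower, and 3 other tested probe sets of that gene did not pass. All the other tested channel and pump genes missed the threshold.

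Promoters are shown for genes that passed the test, to let their sequence be read beside their values. RefSeq sequences (assembly GRCr8) from 250 bases before to 50 bases after the annotated start were at hand for 7 of the 8 genes with a called probe set, and 3 of these 7 hold a match on either strand to GGGA, any 4 bases and CC, a pattern of NF-kB sites. Capitals mark the matches.
Itpr1, chr4:142743190-142743489, plus strand: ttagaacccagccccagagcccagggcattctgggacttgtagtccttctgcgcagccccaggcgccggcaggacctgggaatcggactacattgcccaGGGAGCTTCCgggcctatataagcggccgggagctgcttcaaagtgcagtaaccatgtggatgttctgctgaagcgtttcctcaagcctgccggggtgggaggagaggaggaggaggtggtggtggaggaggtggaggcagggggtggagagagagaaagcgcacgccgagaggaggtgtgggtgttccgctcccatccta
Kcne4, chr9:87695798-87696097, plus strand: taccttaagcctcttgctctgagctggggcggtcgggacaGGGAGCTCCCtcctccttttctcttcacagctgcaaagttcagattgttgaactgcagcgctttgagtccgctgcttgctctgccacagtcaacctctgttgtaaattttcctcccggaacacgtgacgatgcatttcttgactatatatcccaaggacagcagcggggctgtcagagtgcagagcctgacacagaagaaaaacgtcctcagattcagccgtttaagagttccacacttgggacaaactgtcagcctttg
Atp2b1, chr7:35622211-35622510, plus strand: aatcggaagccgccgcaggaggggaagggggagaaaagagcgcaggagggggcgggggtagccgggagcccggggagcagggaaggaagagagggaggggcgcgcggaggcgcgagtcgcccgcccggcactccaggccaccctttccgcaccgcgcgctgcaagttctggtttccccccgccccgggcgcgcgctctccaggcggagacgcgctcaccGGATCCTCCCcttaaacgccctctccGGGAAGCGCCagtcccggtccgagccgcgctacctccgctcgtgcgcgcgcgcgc
The match in Itpr1, GGGAGCTTCC, begins 151 bases before the start, and that in Kcne4, GGGAGCTCCC, begins 210 bases before it and reads the same on both strands. Atp2b1, which moved the other way, holds a match on the minus strand that begins 31 bases before the start and another that spans it. The promoters of Atp2a1, Atp2a2, Cacna1c and Scn4b hold none in these 300 bases. Of all 33469 promoters of this length in the table, 19.3% hold a match, against 37 of the 119 promoters of channel and pump genes (31.1%), 20 of the 45 for tested ones (44.4%) and the 3 of 7 for called ones (42.9%). The median GC content was 61.7% in the 119 promoters of channel and pump genes and 51.7% over all promoters, and its part in the difference was not tested. The CArG box, the serum response element of smooth muscle genes, was found in 0 of the 119 promoters and in 1.64% of all promoters, with both strands searched. Cacna1c is printed for comparison, as a called gene without a match in this window.
Cacna1c, chr4:154051699-154051998, minus strand: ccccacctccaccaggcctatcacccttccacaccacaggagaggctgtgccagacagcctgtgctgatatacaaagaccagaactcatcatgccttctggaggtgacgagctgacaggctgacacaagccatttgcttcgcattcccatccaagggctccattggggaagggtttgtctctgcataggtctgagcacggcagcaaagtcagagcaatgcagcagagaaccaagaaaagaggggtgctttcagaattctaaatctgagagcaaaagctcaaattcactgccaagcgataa

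Most channel genes were dim in these cells. Of the 250 probe sets, 73 for 56 genes passed the filter on low values, which asks for a mean log2 value over the 4 arrays at or above the 40th percentile of all probe sets. Of the 73, 6 reached that value in the IL-1b group alone and 6 in the vehicle group alone, so that these had to differ in order to be tested. The called ones among them were Scn4b (IL-1b) and Atp2a1 (vehicle). The other 177 were not tested, among them all probe sets of 101 genes. The filter fell between Clcn2 at a mean log2 value of 5.36 and a Cacnb2 probe set at 5.37. Against a background taken from 27 control probe sets for bacterial transcripts, 60 of the 250 were above it on both IL-1b arrays, 77 on both vehicle arrays, 48 on all 4 arrays, and 88 on none.

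**Figure D1:**
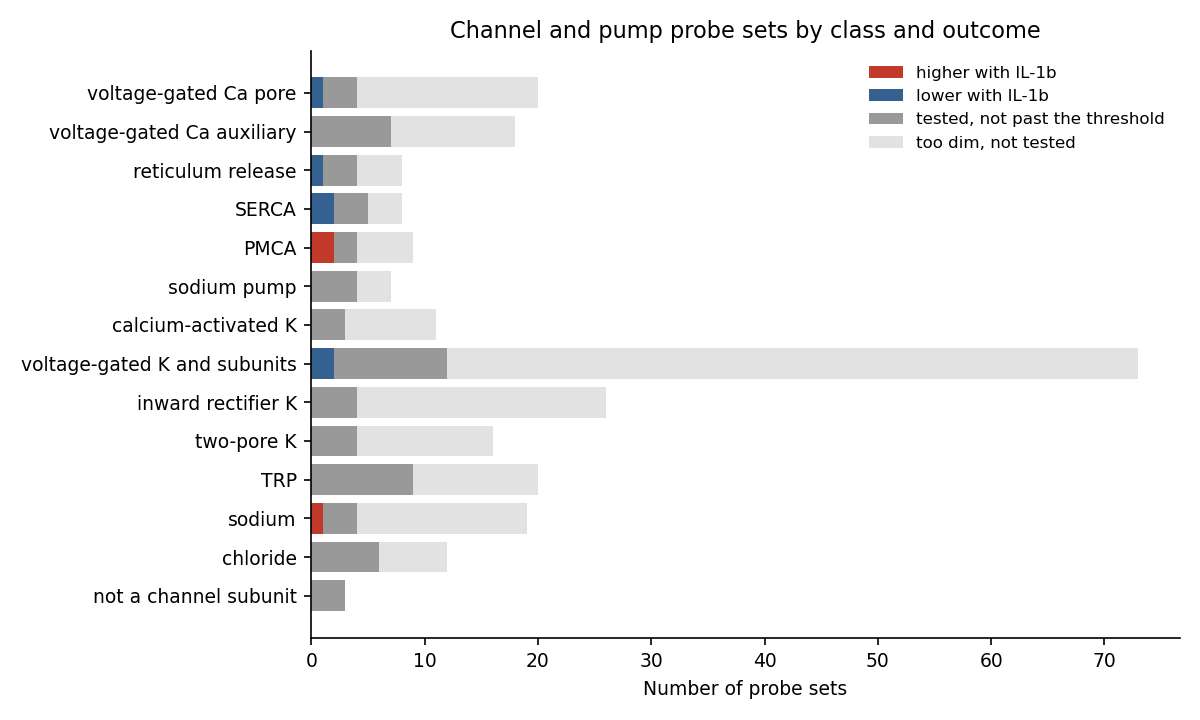
Number of probe sets (horizontal axis) in each channel class, split into those higher with IL-1b, lower with IL-1b, tested without passing an adjusted p of 0.05, and too dim to be tested. Voltage-gated potassium channels had the most probe sets, 73, of which 12 were tested, while the SERCA family had 5 of 8 tested.

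The IL-1b arrays differed more from each other than the vehicle arrays did. The values on the IL-1b arrays differed at least 3-fold for 14 of the 73 tested channel and pump probe sets (19.2%), and those on the vehicle arrays for 4 (5.48%). Over all probe sets tested these shares were 6.97% and 1.74%. IL-1b replicate 1 stood apart, with hybridisation controls at 3.50 times their vehicle level, against 0.952 times on IL-1b replicate 2, and a background of 76.7, against 18.8 on IL-1b replicate 2 and 29.4 and 26.9 on the vehicle arrays. On that array 138 of the 250 channel and pump probe sets read above both vehicle arrays and 56 below both, while on IL-1b replicate 2 these counts were 75 and 101. As shares these are 55.2% above and 22.4% below on replicate 1 and 30.0% and 40.4% on replicate 2, where all probe sets that are no controls gave 50.9% and 32.8%, and 36.5% and 39.4%. A fit with 1 array left out measures spread within the other group alone. With an IL-1b array left out, the p-values hold no spread among IL-1b samples, and calls rise over the whole array. Below, fold changes from such fits are given for most of the genes described, with p-values only where a call was lost.

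**Figure D2:**
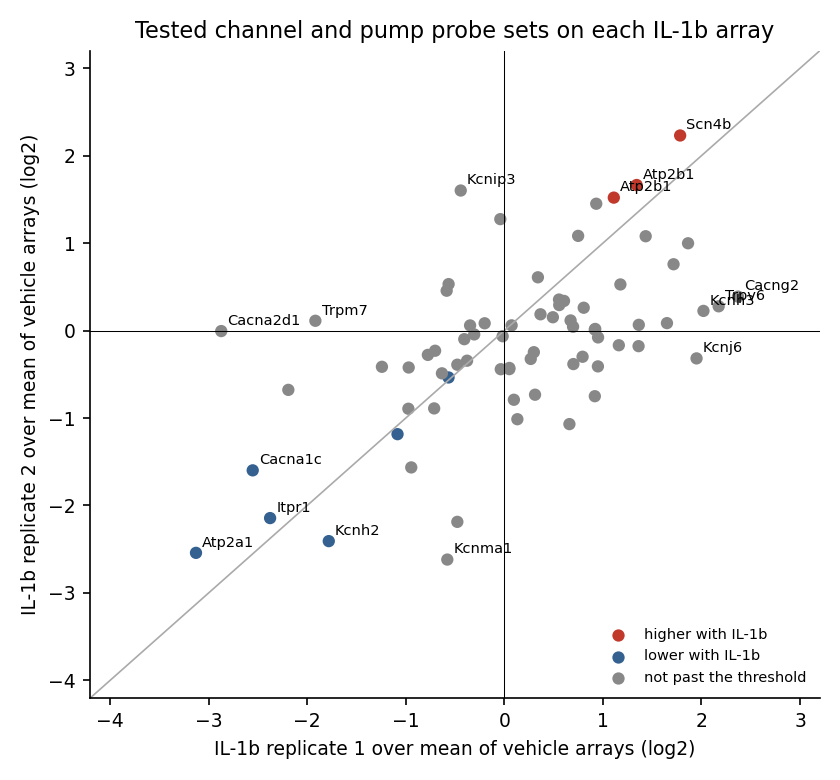
Each point is 1 of the 73 tested probe sets, placed by the log2 ratio of IL-1b replicate 1 (horizontal axis) and IL-1b replicate 2 (vertical axis) to the mean of the vehicle arrays, with the offset described under processing. The called probe sets lie near the diagonal, while Cacna2d1, Trpm7, Kcnma1, Kcnj6 and Cacng2 moved on 1 IL-1b array and little on the other.

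The labelled cell type was checked against 9 smooth muscle markers, of which 7 were above background on all 4 arrays. Their summed intensity was 11754 and 8962 on the IL-1b arrays, against 34802 and 35613 on the vehicle arrays, and 8 of the 9 fell. These markers moved in the same direction as the channel genes that fell, and their part in those results was not tested. In RNA from whole cultures, fewer cells of a type and less RNA per cell cannot be told apart. Of 5 fibroblast markers, 2 of 4 tested rose (Dpt and Pdgfra), and the summed level was 1380 and 1759 with IL-1b, against 627 and 650 with vehicle. Dpt, at 313 and 288 against 19.2 and 31.3, reached the filter through the IL-1b arrays alone, so it had to differ to be tested. Of 7 endothelial markers on the array, 2 were tested and 0 passed in limma (0 also at an unadjusted p under 0.05). Summed levels of the 7 were 314 and 119 against 156 and 182. The tested ones, Esam and Tek, were above background on 3 arrays each, while Pecam1, Vwf, Tie1 and Emcn were below background on every array. Kdr, not tested, went the other way, at 54.0 and 36.1 with IL-1b against 5.16 and 5.64 with vehicle. It was above background on IL-1b replicate 2 alone. Of 8 leukocyte markers 2 were tested and 0 passed (1 at an unadjusted p under 0.05). Their sums were 1147 and 1062 with IL-1b against 791 and 693 with vehicle. Most of these sums came from Cd14, at 796 and 950 against 616 and 578, above background on all 4 arrays. Its log2 fold change was 0.54 ± 0.16 (adjusted p = 0.072). Itgam and Tyrobp were below background on every array. Csf1r and Cd3e were above it on 3 arrays each, and Aif1, Ptprc and Cd68 on 1 each. Cd68 read 40.2 and 32.5 with IL-1b against 10.8 and 5.55 with vehicle. Of 5 Schwann cell and neural markers 1 was tested and 0 passed (0 at an unadjusted p under 0.05), with sums of 199 and 138 against 160 and 123. Snap25 was below background on every array, while Syp, the tested one, was above it on 3. Tubb3 was above it on 2 arrays and S100b on 1. Sox10 read 41.9 and 41.8 with IL-1b against 5.19 and 3.56 with vehicle, above background on IL-1b replicate 2 alone.

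Of the 73 tested probe sets, 3 were higher and 6 lower with IL-1b at an adjusted p of 0.05 in limma, 12.3% in all, where 13.4% of all 18625 probe sets tested were called, 6.32% higher and 7.11% lower. At this filter the share of calls was thus near that of the whole array. Taken by gene at the brightest probe set, 2 genes were higher and 5 lower of 56, where 15.3% of 10000 genes were called. The median log2 fold change was 0.03 over the 73 probe sets and 0.02 over all probe sets tested. The arrays of the groups did not overlap for 37 of the 73 (50.7%), 17 with both IL-1b arrays above and 20 with both below, where 58.3% of all probe sets tested did not overlap, 29.2% above and 29.1% below. When dim probe sets were kept in, 8 of the 250 were called (3.2%), where 8.16% of all probe sets were. Under a filter at the 60th percentile 7 of 29 were called (24.1%), where 19.0% of all were. With each array centred on its median, 1 was higher and 5 lower, so that 16.7% of the calls were higher in place of 33.3%. The counts changed with the IL-1b array used: 6 were higher and 13 lower without replicate 1 of IL-1b, and 16 and 17 without replicate 2 of it, where the shares called over all probe sets were 29.1% and 46.5%. Of the 73, 19 had an unadjusted p under 0.05. The share over all probe sets at that level was not counted, so this count and those by class below cannot be read as an excess.

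**Figure D3:**
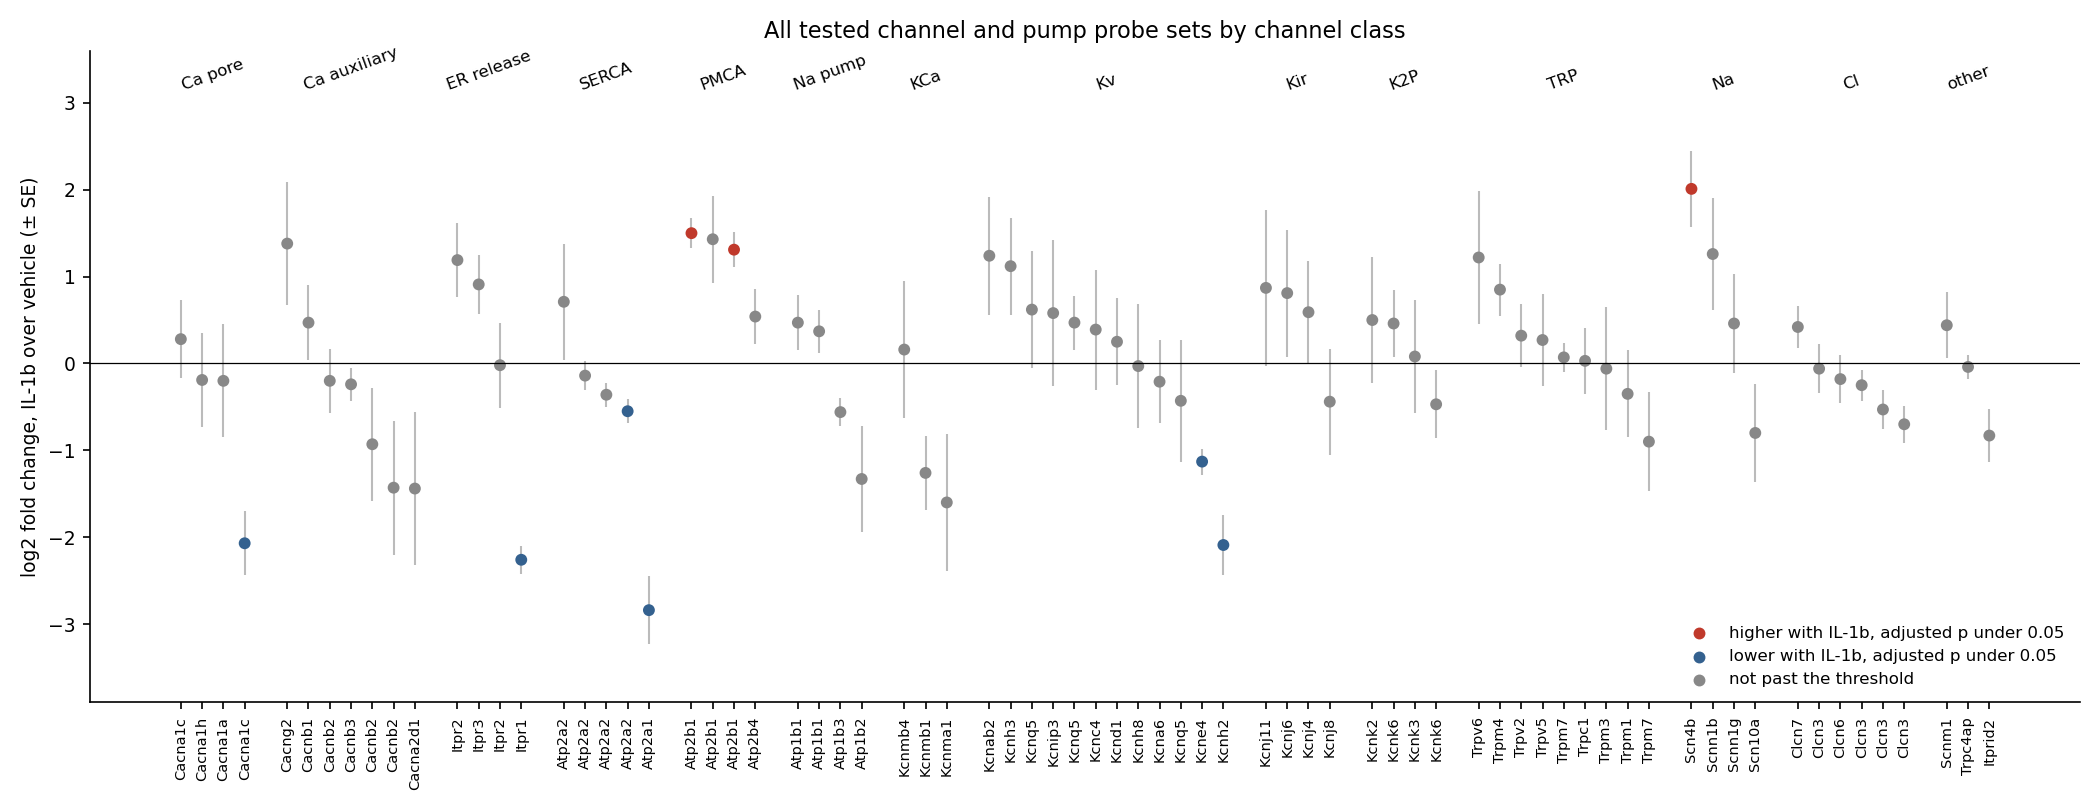
Log2 fold change of IL-1b over vehicle (vertical axis, bars are the standard error of the fit) for each of the 73 tested probe sets, grouped by channel class and named by gene. The lowest value was -2.84, for Atp2a1, and the highest 2.01, for Scn4b; ER release stands for the release channels of the reticulum, KCa, Kv, Kir and K2P for the calcium-activated, voltage-gated, inwardly rectifying and tandem-pore potassium channels, and other for the 3 genes that are no channel subunits.

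Calcium entry through voltage-gated channels was represented by 20 probe sets for pore subunits, of which 4 were tested and 1 was lower. Cacna1c encodes the pore of the L-type channel, the main voltage-driven route of calcium entry in arterial muscle. At its brightest probe set it read 60.8 and 123 with IL-1b, against 317 and 464 with vehicle. All IL-1b values lay below all vehicle values, and the value on IL-1b replicate 1 was below that array's background. The log2 fold change was -2.07 ± 0.37 (SE, adjusted p = 0.012 in limma), -1.59 with IL-1b replicate 1 left out and -2.55 with IL-1b replicate 2 left out. The second tested probe set of Cacna1c did not follow, with 77.1 and 67.4 against 51.6 and 66.4 and a log2 fold change of 0.28 ± 0.45 (adjusted p = 0.73). The probe sets of this gene thus disagreed, and with the mean of both the value was -0.90 (adjusted p = 0.11). Whether they read different transcript forms was not tested.

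Cacna1h, a T-type channel pore opened by small depolarisations, and Cacna1a, the P/Q-type pore known from nerve endings, had log2 fold changes of -0.19 ± 0.54 and -0.20 ± 0.65 (adjusted p = 0.85 and 0.87). Cacna1g, another T-type pore, was too dim to be tested, at 128 and 71.1 with IL-1b against 8.92 and 7.28 with vehicle. It was above background on both IL-1b arrays and below it on both vehicle arrays, so it was at least 3.40-fold higher with IL-1b as a bound on intensity. With no filter it narrowly missed the threshold (adjusted p = 0.0519).

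The auxiliary subunits shape how many calcium channels reach the membrane and how they open. Of 18 probe sets 7 were tested and 0 passed in limma, with 0 at an unadjusted p under 0.05. Cacnb3, a beta subunit, read 472 and 355 with IL-1b against 468 and 501 with vehicle (log2 fold change -0.24 ± 0.19, adjusted p = 0.47). It was at -0.44 with IL-1b replicate 1 left out and at -0.04 with IL-1b replicate 2 left out. The 3 tested probe sets of Cacnb2, also a beta subunit, had log2 fold changes of -0.20, -0.93 and -1.43 (adjusted p = 0.77, 0.41 and 0.28). The last of these was -0.68 with IL-1b replicate 1 left out and -2.19 with IL-1b replicate 2 left out. Those at -0.93 and -1.43 reached the filter through the vehicle arrays alone. Cacna2d1, an alpha-2-delta subunit, read 16.1 and 152 with IL-1b against 211 and 110 with vehicle, so the IL-1b arrays were far apart. Its log2 fold change was -1.44 ± 0.88 (adjusted p = 0.35). It was 0.00 with IL-1b replicate 1 left out and -2.87 with IL-1b replicate 2 left out. Cacng2, known from glutamate receptors of the brain, was likewise split, at 510 and 125 with IL-1b against 53.5 and 163 with vehicle (adjusted p = 0.27). Its log2 fold change was 0.39 and 2.37 with IL-1b replicate 1 and replicate 2 left out in turn. Without vehicle replicate 2 it was 2.14.

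Of 8 probe sets for release channels of the reticulum, 4 were tested and 1 was lower. Itpr1 encodes the type of inositol trisphosphate receptor known as a main release channel of vascular muscle. It read 229 and 270 with IL-1b, against 1177 and 1249 with vehicle, above background on all 4 arrays. The SD was 28.9 with IL-1b and 50.7 with vehicle (n = 2 each), small beside the gap between the groups. The log2 fold change of -2.26 ± 0.16 (SE, adjusted p = 2.6e-04 in limma), a 4.78-fold decrease, stayed between -2.46 and -2.14 in all 16 alternatives and kept its call in each of them.

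The other receptors of the family did not pass the threshold. Itpr3 read 121 and 154 with IL-1b against 74.7 and 65.2 with vehicle (log2 fold change 0.91 ± 0.34, adjusted p = 0.14). Without IL-1b replicate 1 it was at 1.08, and without IL-1b replicate 2 at 0.75. For Itpr2 a probe set read 91.9 and 134 against 45.0 and 46.1 (1.19 ± 0.43, adjusted p = 0.13). Without IL-1b replicate 1 that probe set was at 1.45, and without IL-1b replicate 2 at 0.93. Another probe set was at -0.02 ± 0.49 (adjusted p = 0.98). The difference between Itpr1 and its relatives was not tested. The 3 ryanodine receptor genes, Ryr1, Ryr2 and Ryr3, which release calcium in response to calcium, were below background on every array and were not tested.

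Return of calcium to the reticulum depends on the SERCA pumps, with 8 probe sets, 5 of them tested and 2 lower. Atp2a1, known as the pump of fast skeletal muscle, read 24.0 and 38.8 with IL-1b against 287 and 222 with vehicle, and the value on IL-1b replicate 1 was below that array's background. Its mean log2 value was 5.18 with IL-1b, under the filter of 5.37, and 8.01 with vehicle, so it was tested through the vehicle arrays alone and the size of its decrease rests on values near background. The fitted log2 fold change was -2.84 ± 0.39 (SE, adjusted p = 0.0042 in limma), or -2.66 and past the threshold no longer without vehicle replicate 1 (adjusted p = 0.074).

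Atp2a2, the pump that muscle and most other cells use, was measured by 4 tested probe sets. The brightest read 1669 and 2214 with IL-1b against 2116 and 2135 with vehicle, and these values overlapped (log2 fold change -0.14 ± 0.17, adjusted p = 0.64). The value was 0.06 with IL-1b replicate 1 left out and -0.35 with IL-1b replicate 2 left out. The probe set that was called read 564 and 576 with IL-1b against 820 and 856 with vehicle, a small difference of -0.55 ± 0.14 (SE) on the log2 scale with tight replicates. Its adjusted p of 0.0488 lay at the threshold, and the call was lost in 10 of 15 alternatives, among them without either vehicle array (adjusted p = 0.39 and 0.50). Another probe set was also lower on both IL-1b arrays, at -0.36 ± 0.14 (adjusted p = 0.15). It was -0.34 and -0.38 with IL-1b replicate 1 and 2 left out in turn. A dim one was at 0.71 ± 0.67 (adjusted p = 0.53). Atp2a3, a SERCA pump known from blood and endothelial cells, was below background on every array.

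Of 9 probe sets for the surface membrane pumps, 4 were tested and 2 were higher, both for the same gene. Atp2b1 encodes PMCA1, the surface pump found in nearly all cells. Its brightest probe set read 1021 and 1278 with IL-1b against 389 and 410 with vehicle, and its second 740 and 985 against 307 and 376. Both were above background on all arrays, with no overlap between the groups. The log2 fold changes were 1.50 ± 0.17 and 1.31 ± 0.20 (SE, adjusted p = 0.0017 and 0.0064 in limma). A dimmer one read 155 and 82.6 against 46.1 and 32.2, with a fold change of like size that missed the threshold (1.43 ± 0.50, adjusted p = 0.12). That value was 1.0 and 1.86 with IL-1b replicate 1 and 2 left out in turn. Centring each array on its median moved the median of all probe sets from 0.02 to -0.19, and both calls were lost. The brightest probe set was then at 1.30 and narrowly missed the threshold (adjusted p = 0.0538). The second was at 1.11 and missed it by more (adjusted p = 0.12). Atp2b4, a second surface pump of smooth muscle, was at 0.54 ± 0.32 (adjusted p = 0.33), with 211 and 143 against 136 and 103. It was at 0.27 with IL-1b replicate 1 left out and at 0.81 with IL-1b replicate 2 left out.

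**Figure D4:**
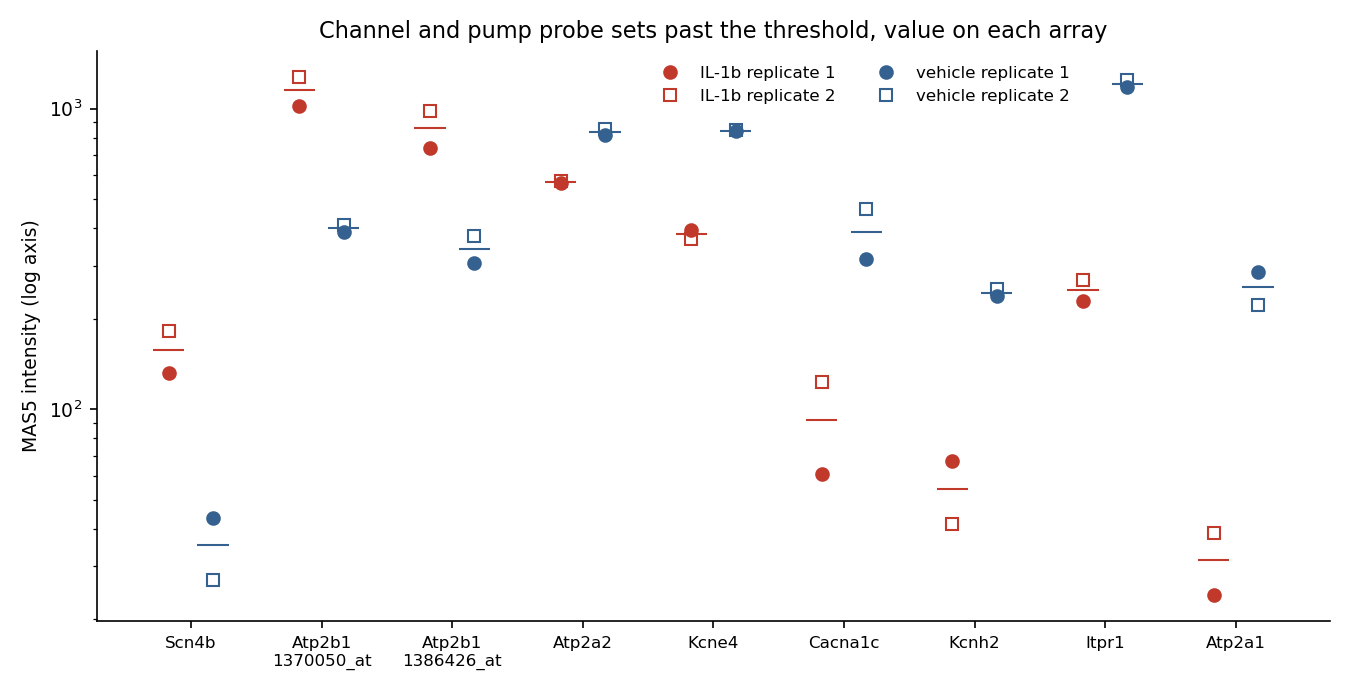
MAS5 intensity (log axis) of the 9 probe sets past the threshold on each array, with IL-1b in red to the left of vehicle in blue and a bar at each group's mean (n = 2 each). The groups do not overlap for any of them, which 2 arrays a group and this threshold nearly require, and the gap is narrowest for Atp2a2.

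Potassium channels made up 126 of the 250 probe sets, for 75 genes, of which 23 probe sets were tested, 0 were higher and 2 lower (8.70%). Kcnh2 encodes an ether-a-go-go related channel that helps repolarise the heart and sets the resting voltage of some smooth muscles. It read 67.2 and 41.6 with IL-1b against 238 and 251 with vehicle, and 3 of the 4 values exceeded background, all but that on IL-1b replicate 1. The log2 fold change was -2.09 ± 0.34 (SE, adjusted p = 0.0084 in limma), and without vehicle replicate 2 it was -2.06 and missed the threshold (adjusted p = 0.081). Kcne4 encodes a small subunit that assembles with voltage-gated potassium channels and alters their currents. It read 395 and 368 with IL-1b against 840 and 847 with vehicle, a log2 fold change of -1.13 ± 0.15 (adjusted p = 0.0035), which was -1.18 to -1.08 when each array was left out in turn. Both genes lay well apart between groups, relative to the gap between replicates.

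The other 10 tested probe sets of voltage-gated potassium channels and their subunits had log2 fold changes of -0.43 to 1.24 (adjusted p = 0.25 to 0.98). Kcnh3 and Kcnab2 were at 2.02 and 1.72 with IL-1b replicate 2 left out, and Kcnip3 at 1.60 with IL-1b replicate 1 left out. With the other IL-1b array left out they were at 0.22, 0.76 and -0.44. Kcnab2 reached the filter through the IL-1b arrays alone. Among the 10, Kcnq5, whose product is a partner of such small subunits in vascular muscle, was at 0.47 ± 0.31 at its brightest probe set, with 180 and 218 against 182 and 109. Kcna5 and Kcna2, delayed rectifier pores studied in arteries, and Kcnab1, a cytoplasmic subunit, were too dim to be tested. A Kcna2 probe set was at 11.4 and 4.85 with IL-1b, below background, against 51.0 and 34.1 with vehicle, above it (adjusted p = 0.27 with no filter).

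Calcium-activated potassium channels oppose contraction by hyperpolarising the cell when calcium rises. Of 11 probe sets 3 were tested and 0 passed in limma, with 1 at an unadjusted p under 0.05. Kcnma1, the pore of the large-conductance channel, read 53.6 and 8.88 with IL-1b, both below background, against 95.3 and 71.8 with vehicle, both above it. The vehicle level was at least 2.18-fold that with IL-1b as a bound on intensity, and the gene reached the filter through the vehicle arrays alone. Its fitted log2 fold change of -1.60 ± 0.79, which is no measured size, missed the threshold (adjusted p = 0.25). It was -2.62 when IL-1b replicate 1 was left out and -0.58 when the other was. Kcnmb1, its beta subunit in smooth muscle, read 60.9 and 37.7 against 141 and 106, with a log2 fold change of -1.26 ± 0.43 (adjusted p = 0.11). Its reading of 60.9, on IL-1b replicate 1, was below that array's background. Leaving out that array moved the log2 fold change to -1.56, and leaving out IL-1b replicate 2 moved it to -0.95. Kcnmb4, another beta subunit, was at 0.16 ± 0.79 (adjusted p = 0.92). Kcnn4, the intermediate-conductance channel known from dividing smooth muscle cells, was below background on every array. Kcnn3, a small-conductance channel named after its values were seen, was not tested, with 85.4 and 69.2 with IL-1b, above background, against 7.59 and 3.93 with vehicle, below it (adjusted p = 0.061 with no filter).

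**Figure D5:**
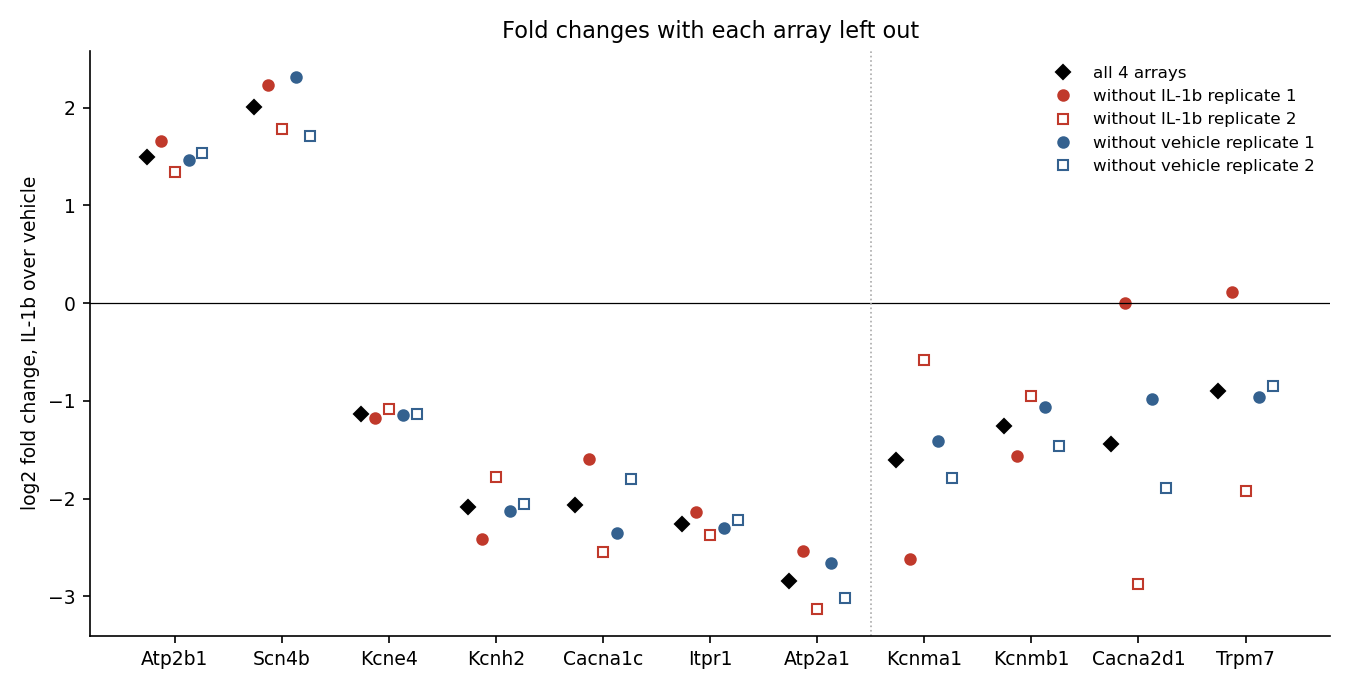
Log2 fold change of IL-1b over vehicle with all 4 arrays and with each array left out, for 7 called genes (left of the dotted line) and 4 genes that missed the threshold. Atp2b1, Kcne4 and Itpr1 moved little, while Cacna2d1 was 0.00 and Trpm7 0.11 without IL-1b replicate 1.

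Inward rectifier channels had 26 probe sets, 4 tested and 0 called in limma (0 at an unadjusted p under 0.05). Kcnj8, the pore of the vascular ATP-sensitive channel, read 65.5 and 26.6 with IL-1b against 56.8 and 61.9 with vehicle, and the groups overlapped (log2 fold change -0.44 ± 0.61, adjusted p = 0.68). Kcnj2, which passes the classical inward rectifier current of small arteries, was too dim to be tested. Kcnj6, a G protein-coupled member, read 230 and 43.4 with IL-1b against 51.5 and 59.7 with vehicle, high on IL-1b replicate 1 alone (log2 fold change 0.81, adjusted p = 0.51). It was -0.32 with that array left out and 1.95 with IL-1b replicate 2 left out. The tandem-pore channels, which carry resting leak currents, had 16 probe sets, 4 tested and 0 called (0 at an unadjusted p under 0.05). Kcnk2, Kcnk3 and the brighter probe set of Kcnk6 were at 0.50, 0.08 and 0.46 on the log2 scale, with standard errors of 0.73, 0.65 and 0.38. The other tested probe set of Kcnk6 went the opposite way, at -0.47 ± 0.39, and the mean of both was -0.01.

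The TRP channels admit calcium and other cations after receptor activation, stretch or store depletion. Of their 20 probe sets 9 were tested and 0 passed in limma, with 1 at an unadjusted p under 0.05. Trpm4, a sodium-permeable channel opened by calcium that depolarises arterial muscle, read 353 and 223 with IL-1b against 180 and 130 with vehicle. Both IL-1b values were above both vehicle values, but the log2 fold change of 0.85 ± 0.30 missed the threshold (adjusted p = 0.12). It was 0.53 with IL-1b replicate 1 left out and 1.18 with IL-1b replicate 2 left out. Trpm7, a channel fused to a kinase that carries magnesium, read 414 and 410 against 420 and 368 at its brightest probe set, a log2 fold change of 0.07 ± 0.17. Its second probe set was split between the IL-1b arrays, at 122 and 515, against 458 and 495 with vehicle. That probe set gave 0.11 with IL-1b replicate 1 left out and -1.92 with IL-1b replicate 2 left out. Trpc1 and Trpv2 were at 0.03 ± 0.38 and 0.32 ± 0.36 (adjusted p = 0.97 and 0.61). Trpc4 was below background on every array, and Trpc6, the receptor-operated channel of arterial muscle, and Trpv4 were too dim to be tested.

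Among sodium channels, 4 of 19 probe sets were tested and 1 was higher. Scn4b encodes a beta subunit that tunes voltage-gated sodium channels and also acts in cell adhesion. It read 132 and 182 with IL-1b against 43.6 and 27.0 with vehicle, above background on all 4 arrays though only just on vehicle replicate 2. Its mean log2 value was 7.33 with IL-1b and 5.32 with vehicle, under the filter of 5.37, so it was tested through the IL-1b arrays alone and its size rests on vehicle values near background. The groups did not overlap, and the fitted log2 fold change was 2.01 ± 0.44 (SE, adjusted p = 0.027 in limma), or 1.71 and no longer past the threshold without vehicle replicate 2 (adjusted p = 0.12). Of the pore subunits 1 probe set was tested, for Scn10a, known from sensory neurons, at -0.80 ± 0.56 (adjusted p = 0.41). The epithelial sodium channel subunits Scnn1b and Scnn1g were at 1.26 ± 0.64 and 0.46 ± 0.57 (adjusted p = 0.26 and 0.65).

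Chloride channels of the Clcn family had 12 probe sets, 6 tested and 0 called in limma, with 2 at an unadjusted p under 0.05. All 4 tested probe sets of Clcn3, a chloride-proton exchanger of endosomes, had negative log2 fold changes, of -0.06, -0.25, -0.53 and -0.70, and the last of these, at 321 and 472 with IL-1b against 607 and 663 with vehicle, had an adjusted p of 0.082. It was -0.42 and -0.97 without IL-1b replicate 1 and 2 in turn. Those at -0.25 and -0.53 were at -0.41 and -0.77 with IL-1b replicate 2 left out. With IL-1b replicate 1 left out they were at -0.1 and -0.28. Clcn7, a lysosomal exchanger, was at 0.42 ± 0.24, and Clcn6, another of late endosomes, at -0.18 ± 0.28 (adjusted p = 0.32 and 0.73).

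For the sodium pump, 4 of 7 probe sets were tested, all for beta subunits, which bring the catalytic subunit to the membrane, and 0 passed in limma, with 1 at an unadjusted p under 0.05. Atp1b3 read 4726 and 5224 with IL-1b against 7337 and 7331 with vehicle. Its log2 fold change of -0.56 ± 0.16 missed the threshold (adjusted p = 0.071), although the groups did not overlap. It passed with quantile normalization (-0.66, adjusted p = 0.021). Without IL-1b replicate 1 and 2 in turn it was -0.49 and -0.63. Atp1b1 was at 0.37 ± 0.25 at its brightest probe set (adjusted p = 0.39). That value was 0.05 with IL-1b replicate 1 left out and 0.70 with IL-1b replicate 2 left out. Its second probe set, at 0.47, gave 0.02 and 0.92 in the same way. Atp1b2 was at -1.33 ± 0.61 (adjusted p = 0.22), or -2.19 and -0.48, so the size for both genes depended on the IL-1b array used. The 3 genes by symbol that are no channel subunits, Scnm1, Itprid2 and Trpc4ap, were at 0.44, -0.83 and -0.04, and 0 passed (1 at an unadjusted p under 0.05). With IL-1b replicate 2 left out Scnm1 and Itprid2 were at 0.95 and -1.24, and with IL-1b replicate 1 left out at -0.08 and -0.41.

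Genes that work with these channels but lie outside the symbol rule, and channel genes of other families, were read from lists. These lists were chosen with earlier results of these data known, so their counts cannot be read as an excess over the shares of all genes. Of 41 listed partners in calcium handling, 30 were tested at their brightest probe set, with 6 higher, 8 lower and 16 not past the threshold, where 7.19% of genes were higher and 8.13% lower. Among those lower were the surface sodium-calcium exchanger Slc8a1, at -1.71 ± 0.25 (log2, SE), the mitochondrial calcium uniporter Mcu at -0.97 ± 0.20, Irag1, through which the G kinase inhibits inositol trisphosphate receptors, at -1.66 ± 0.15, and the calmodulin kinases Camk2d and Camk2g at -1.13 ± 0.15 and -1.40 ± 0.17. Slc24a3, another such exchanger, was also lower, at 18.9 and 26.9 with IL-1b, the first below that array's background, against 755 and 641 with vehicle. It reached the filter through the vehicle arrays alone, so its fitted value of -4.64 ± 0.30 rests on IL-1b values near background. Those higher included Orai1, a pore of store-operated entry, at 0.76 ± 0.19, and the mitochondrial exchanger Slc8b1 at 1.32 ± 0.22. Orai2, a pore like Orai1, read 116 and 151 with IL-1b against 23.0 and 36.7 with vehicle (1.99 ± 0.48), and reached the filter through the IL-1b arrays alone. The calls of Orai1, Orai2 and Mcu were lost with either vehicle array left out. Without vehicle replicate 1 and 2 in turn they were at 0.60 and 0.92, 1.71 and 2.28, and -0.95 and -0.99. The store sensors Stim1 and Stim2 did not pass (adjusted p = 0.52 each), nor did Pln, the inhibitor of the reticulum pump (0.78). The counts were 3 higher and 5 lower without either vehicle array, and 10 and 13 without IL-1b replicate 2.

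Of 41 listed channel genes of other families, 20 were tested, with 7 higher, 3 lower and 10 not past the threshold, where 7.19% of genes were higher and 8.13% lower. Piezo1, a channel opened by stretch, was at 2.47 ± 0.14 (log2, SE, adjusted p = 1.1e-04), with 2094 and 2136 with IL-1b against 372 and 381 with vehicle. Abcc9, the sulphonylurea receptor that pairs with Kcnj8, was lower at -1.84 ± 0.36 (adjusted p = 0.016), with 56.7 and 41.2 against 202 and 174. The value on IL-1b replicate 1 was below that array's background, and the call of Abcc9 was lost without either vehicle array (-1.74 and -1.94). Gem, a small GTPase that restrains voltage-gated calcium channels, was at -3.44 ± 0.30, with 52.8 on IL-1b replicate 1, below that array's background. Fxyd1, the phosphoprotein that regulates the sodium pump, was at -1.25 ± 0.27. Ano1, the calcium-activated chloride channel of arterial muscle, was at 0.82 ± 0.20 (adjusted p = 0.037). The calls of Fxyd1 (-1.33 and -1.18) and Ano1 (0.98 and 0.66) were also lost without vehicle replicate 1 and 2 in turn. Without vehicle replicate 1 or 2 the counts were 1 and 2 higher and 1 and 1 lower, and without either IL-1b array 5 were lower.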

How the data were processed

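Messenger RNA of 4 samples was measured on single-colour Affymetrix rat arrays. The authors deposited 1 linear intensity for each probe set and array. The submitters' processing notes name MAS5, with version and settings not given in the sources used here. All arrays share a trimmed mean of 250.1. No detection calls were used. Values entered the fit as log2 of the intensity plus 5.49 (the 10th percentile), so fold changes of dim genes are understated. Without the 57 array controls, the 18625 probe sets with a mean log2 value of at least 5.37 (the 40th percentile) entered 1 linear model per probe set (limma 3.58.1, R 4.3.3) with an intensity trend. Every adjusted p comes from limma, by the Benjamini-Hochberg method across these probe sets. Folds are fitted values on the offset scale unless given as at least. Background was the 95th percentile of 27 dim bacterial controls on each array. A bound divides the brighter group's geometric mean by the background, or by the gene's own value where that is higher. A gene was represented by its brightest single-symbol probe set.

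Gene symbols are those of the platform's annotation, where 9780 probe sets have no entry. All 157 member genes matched a current gene identifier. Genes named were all those with a called probe set and 46 known in vascular smooth muscle, of which 40 were on the array and 26 tested. A few others, named as examples, were chosen after their values were seen. The members and lists were chosen with earlier results of these data known. The fit was tested on simulated data. Alternatives covered the offset, normalization, filter, variance model, threshold, replicate block, each array left out and the mean of a gene's probe sets. Equal replicate numbers mark no stated pairing, and deviations of same-numbered samples correlated at 0.0912.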

Additional observations from a re-analysis of the deposited data

How the results depend on the processing

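The main counts were 3 probe sets higher and 6 lower, and 2 genes higher and 5 lower. With median centring 1 probe set and 1 gene were higher, so 16.7% of calls were higher in place of 33.3%. Without the intensity trend the counts were 1 higher and 3 lower for probe sets and for genes, and with the filter at the 60th percentile or an adjusted p of 0.01, 1 gene was higher. With an array left out, 3 to 16 probe sets were higher and 4 to 17 lower, and 2 to 13 genes higher and 4 to 11 lower. The replicate number as a block gave 4 probe sets higher and 7 lower, with Trpm4, a Clcn3 probe set and Itprid2 gained and Atp2a2 lost. Among calcium handling partners, 6 higher and 8 lower became 2 higher with median centring, 2 and 4 without the trend and 3 and 5 at an adjusted p of 0.01, and 3 to 10 and 5 to 13 with an array left out. Among other channels, 7 higher and 3 lower became 1 higher with median centring, 1 higher without the trend, 1 and 1 at an adjusted p of 0.01, 2 higher at 2-fold, and 1 to 9 and 1 to 5 with an array left out. The causes were not tested. Alternatives for these lists were added after the data were examined. Of 140 values of called probe sets under the alternatives, 118 kept their call, 22 lost it and 0 changed sign. Scn4b and Atp2a1 were not tested at the 60th percentile. An array left out leaves a lone sample assumed to vary like the other group. Values near background limit what can be said of dim channels.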
